A study of Mus musculus with 40 samples.

Results

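The genes described here are the colony-stimulating factors and their receptors, with 4 ligands (Csf1, Csf2, Csf3 and Il34) and 5 receptor genes (Csf1r, Csf2ra, Csf2rb, Csf2rb2 and Csf3r). They were chosen by name as a family, with no measured value used, and are 9 of the 45706 genes in the table. All 9 have values in the table for the 40 libraries, and Csf2, Csf3 and Il34 have 0 counts in many of them.

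Colony-stimulating factors are secreted proteins that keep myeloid cells alive and drive their production and maturation. Csf1 (M-CSF) and Il34 both bind Csf1r, a receptor tyrosine kinase that marks the monocyte and macrophage lineage. Csf2 (GM-CSF) binds an alpha chain, Csf2ra, which signals through the common beta chain Csf2rb, while Csf3 (G-CSF) acts on Csf3r, a receptor best known from neutrophils and their release from bone marrow.

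RNA had been sequenced from cells sorted out of colon tumors, healthy colon and blood, with 4 libraries in each of 10 groups. Tumor-bearing mice carried Cdx2CreERT2 - Apc fl/fl, in which the colon-expressed Cdx2 promoter drives a tamoxifen-dependent Cre that deletes both copies of Apc, and had received tamoxifen at 25 mg/kg once, at 8 to 10 weeks of age per the labels. From them came neutrophils, monocytes, epithelial cells and stromal cells of tumors and neutrophils and monocytes of blood. Healthy mice were labelled C57Bl6 with no transgene and no agent, and gave neutrophils and monocytes from blood and epithelial and stromal cells from colon. The strain of tumor-bearing mice was labelled C57Bl6/Sv129, with the last number counting up from library to library, and the age of healthy mice was not given in the labels. Strain, transgene, tamoxifen and tumor therefore cannot be told apart wherever tumor-bearing mice are set against healthy ones. The study sorted neutrophils as CD45+ CD11b+ MHCII- Ly6G+ Ly6C low cells, monocytes as the Ly6G- Ly6C high cells of that gate, epithelial cells as EpCAM+ CD45- and stromal cells as EpCAM- CD45-. The titles of some blood libraries name a pair of animals and so appear to be pools.

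Counts on genes totaled 10717873 to 38002939 per library, with a median of 16338416, and mitochondrial genes took 5.34% to 83.9% of them. Marker genes of other cell types were present in several tumor libraries. The summed level of 8 epithelial markers, all 8 detected, was 10.7 to 127 RPKM (reads per kilobase of gene length, scaled to library size) in tumor neutrophils and 24.2 to 191 RPKM in tumor stromal cells, against 129 to 298 RPKM in sorted tumor epithelial cells. In tumor neutrophil library 1 it reached 66.4% of the epithelial mean, and in tumor stromal libraries 1 and 2 it reached 99.6% and 58.1%. The 6 fibroblast markers summed to 355 to 2010 RPKM in healthy stromal cells and to 5.97 to 24.0 RPKM in tumor stromal cells, so the tumor stromal libraries held little fibroblast transcript. The 6 neutrophil markers stood at 1546 and 511 RPKM in tumor stromal libraries 3 and 4, which is 19.7% and 6.5% of the mean of tumor neutrophils, and at 8.21 to 40.5 RPKM in libraries 1 and 2. In these bulk samples, fewer cells of a type and less RNA per cell cannot be told apart.

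Csf1 was the ligand with the most transcript and the member that changed in the most comparisons. It fell in blood neutrophils of tumor-bearing mice and was higher in tumor neutrophils, tumor monocytes and tumor epithelial cells than in their reference groups. Among the receptors, Csf2rb and Csf2rb2 rose in tumor monocytes, and Csf1r and Csf3r were higher in tumor than in healthy stromal cells. The stromal results were lost under 10 of 20 alternative analyses for Csf1r and 12 of 20 for Csf3r. A gene was called when edgeR's quasi-likelihood test on counts gave a Benjamini-Hochberg adjusted p under 0.05 over all genes tested and an absolute log2 fold change above 1.5. Between tumor and blood of tumor-bearing mice, 1 of 6 members tested was called in neutrophils, where 16.3% of all genes tested were called, and 3 of 6 in monocytes, where 11.7% were. When blood cells from mice with tumors were set against those of healthy mice, 1 of 6 was called in neutrophils beside 4.01% of all genes. In blood monocytes edgeR called 0 of 6 beside 0.209%, while 3 of 6 had an unadjusted p under 0.05, DESeq2 called 1 and limma-voom called 0. Between tumor and healthy colon, 1 of 6 was called in epithelial cells beside 15.4% of all genes and 2 of 8 in stromal cells beside 8.4%. Csf2 had too few counts to be tested in any comparison, and Csf3 and Il34 were tested only where stated. Comparisons that use the same group share its libraries, so their values are not independent.

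**Figure D1:**
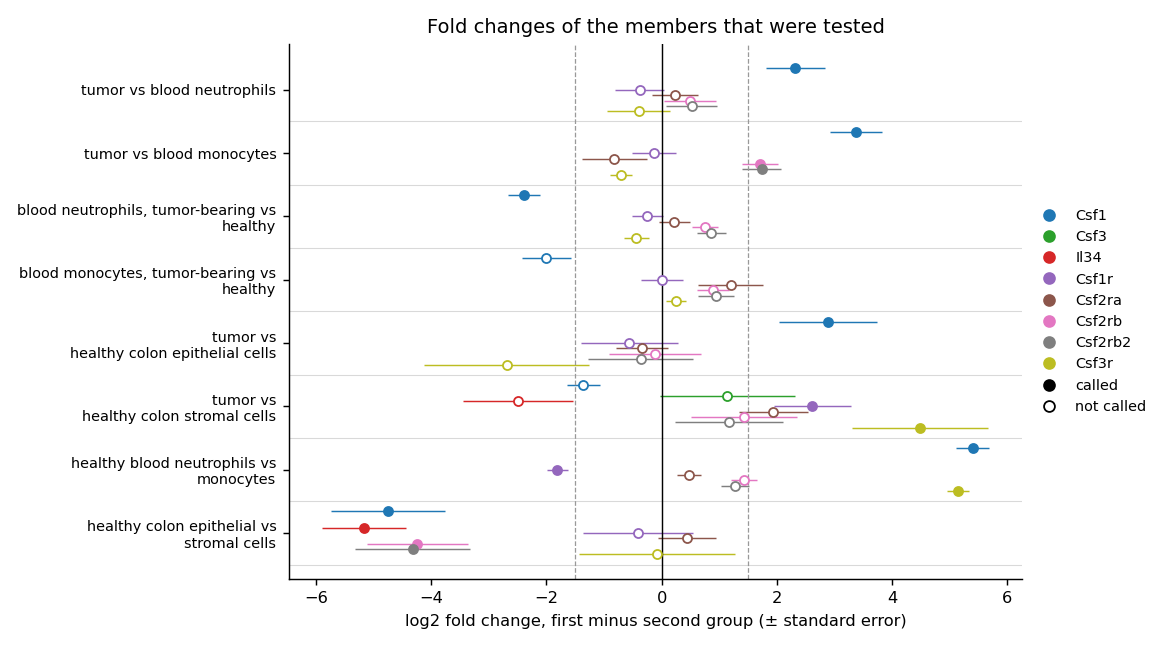
Log2 fold changes of the members tested in 8 comparisons, with standard errors on the horizontal axis (first minus second group). Filled points were called, and dashed lines mark the fold threshold of 1.5. Csf1 is called in 6 of the 8 comparisons named on the vertical axis, and is not called between the blood monocyte groups or between the stromal groups.

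In healthy blood neutrophils Csf1 (ENSMUSG00000014599, chr3:107741048-107760469, minus strand, mm10) stood at 16.9, 18.4, 15.3 and 15.8 RPKM. The 4 libraries from blood neutrophils of tumor-bearing mice gave 2.19, 2.06, 3.60 and 4.23 RPKM. All 4 lay below every healthy library, with means of 16.6 ± 1.37 and 3.02 ± 1.07 RPKM (SD, n = 4 each). The difference on the log2 scale was -2.39 (standard error 0.28), with an adjusted p of 0.00231 in edgeR. The 6 neutrophil markers moved in the other direction, from 3452 to 8250 RPKM in healthy mice to 15286 to 19932 RPKM in tumor-bearing mice, and the part of that difference in the fall of Csf1 was not tested. In blood monocytes Csf1 was 0.700, 0.619, 0.443 and 0.905 RPKM in healthy mice and 0.161, 0.0983, 0.244 and 0.120 RPKM in tumor-bearing mice. These groups did not overlap either, but the log2 difference of -2.0 (standard error 0.43) did not pass the test (edgeR adjusted p = 0.106).

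Tumor neutrophils had Csf1 at 11.6, 20.5, 9.84 and 11.1 RPKM, which is above all 4 libraries from blood of the same kind of mice. The mean was 13.3 ± 4.89 RPKM, and the log2 fold change against their blood neutrophils was 2.32 (standard error 0.51, edgeR adjusted p = 0.0105). Its level in tumor neutrophils overlapped that of healthy blood neutrophils. Epithelial markers were also higher, at 10.7 to 127 RPKM in tumor neutrophils against 0.618 to 1.51 RPKM in blood neutrophils. Neutrophil markers were lower, at 1869 to 12235 RPKM against 15286 to 19932 RPKM, and mitochondrial genes took 17% to 37.5% of counts against 9.36% to 16.8%. The part of these differences in the rise of Csf1 was not tested. The library with the most epithelial transcript had 11.6 RPKM of Csf1 and the one with the least 11.1 RPKM, while sorted tumor epithelial cells had a mean of 2.59 RPKM. Without library 1 the log2 fold change was 2.50 (edgeR adjusted p = 0.0111).

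Tumor monocytes had Csf1 at 1.55, 0.752, 1.51 and 1.59 RPKM, a mean of 1.35 ± 0.400 RPKM. Each library lay above the 4 blood monocyte libraries of tumor-bearing mice, whose highest value was 0.244 RPKM. The log2 fold change was 3.38 (standard error 0.45, edgeR adjusted p = 0.000655). Epithelial markers summed to 1.60, 26.8, 10.6 and 7.73 RPKM in these libraries and to at most 0.959 RPKM in the blood monocytes. The library with the highest epithelial sum, library 2, had the lowest Csf1 level. Sorted tumor epithelial cells had a mean of 2.59 RPKM of Csf1, above that of tumor monocytes. Neutrophil markers stood at 0.344% to 0.771% of their mean in tumor neutrophils. The monocyte markers themselves were lower in tumor monocytes, at 143 to 201 RPKM, than in blood monocytes, at 350 to 403 RPKM. The part of these marker differences in the rise of Csf1 was not tested. An interaction term compared the blood to tumor change of the neutrophils with that of the monocytes. For Csf1 it was -1.19 on the log2 scale (standard error 0.63, edgeR adjusted p = 0.3), and without tumor neutrophil library 2, the one at 20.5 RPKM, it was -1.82 and called (adjusted p = 0.0445). With all libraries the interaction called 0 of 7 members, beside 3.95% of all genes, 2 of 7 had an unadjusted p under 0.05, and DESeq2 and limma-voom called 0.

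**Figure D2:**
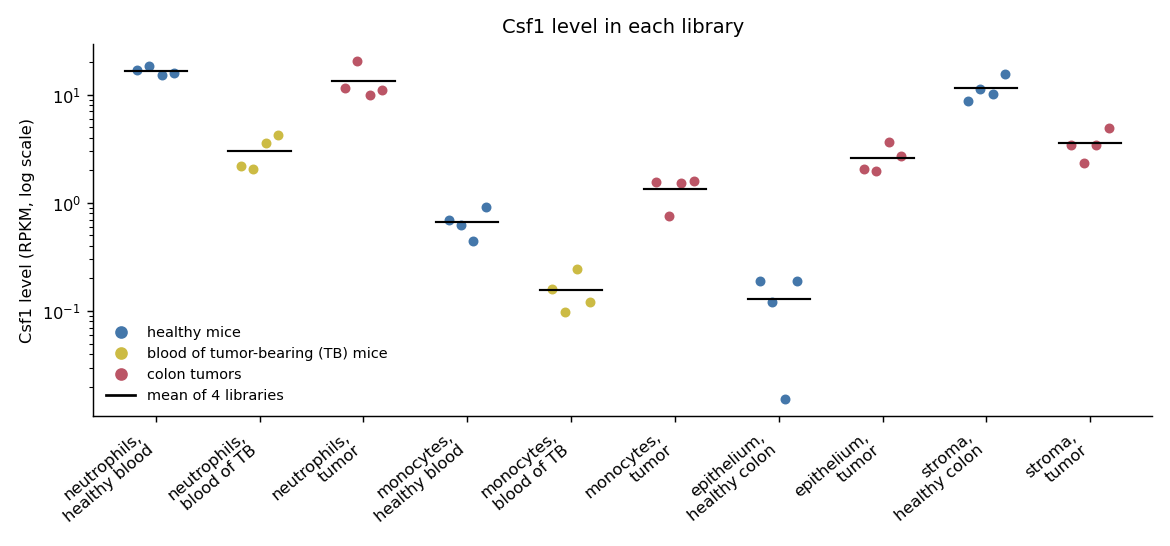
Csf1 in RPKM on a log axis, with 1 point per library and a bar at the mean of each group of 4. Healthy blood neutrophils and tumor neutrophils are at the top, at means of 16.6 and 13.3, and blood neutrophils of tumor-bearing mice lie between 2.06 and 4.23.

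Healthy colon epithelial cells had 0.191, 0.120, 0.0152 and 0.190 RPKM, and tumor epithelial cells had 2.06, 1.95, 3.66 and 2.69 RPKM. Every tumor library was above every healthy library, and the log2 fold change was 2.89 (standard error 0.85, edgeR adjusted p = 0.0331). The call was lost on leaving out any 1 of the 4 tumor libraries or healthy library 1 or 2, with edgeR adjusted p of 0.0625 to 0.0794 and log2 fold changes of 2.58 to 2.93. Endothelial markers (0.062 to 0.432 RPKM in healthy and 4.48 to 4.82 RPKM in tumor epithelial cells) and monocyte markers (0.394 to 1.76 and 9.0 to 25.5 RPKM) were also higher in the tumor, and their part in the rise was not tested. Neutrophil markers were lower there, at 0.907 to 4.44 RPKM against 6.45 to 12.4 RPKM.

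Stromal cells of healthy colon had Csf1 at 8.67, 11.3, 10.2 and 15.6 RPKM, and those of tumors had 3.42, 2.31, 3.45 and 4.96 RPKM. The groups did not overlap. The log2 fold change of -1.36 (standard error 0.29, edgeR adjusted p = 0.0241) passed the adjusted p but not the fold threshold. It passed both without tumor libraries 3 and 4 (-1.61, edgeR adjusted p = 0.0148), without tumor library 4 alone (-1.57, adjusted p = 0.0216) or without healthy library 1 (-1.55, adjusted p = 0.0308), and neither without tumor libraries 1 and 2 (-1.17, adjusted p = 0.0994). The fibroblast markers were lower in the same tumor libraries, as given above, and their part in the difference was not tested.

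Il34 (ENSMUSG00000031750, chr8:110741829-110805924, minus strand), the other ligand of Csf1r, had few counts outside stromal cells, with at most 16 in any other library. It stood at 0.849, 0.963, 0.605 and 0.341 RPKM in healthy stromal cells and at 0.0413, 0.000735, 0.217 and 0.152 RPKM in tumor stromal cells. All healthy libraries were above all tumor libraries, but the log2 fold change of -2.49 (standard error 0.96) did not pass the test (edgeR adjusted p = 0.146). It was called by DESeq2 (DESeq2 adjusted p = 0.0292) and, without tumor libraries 3 and 4, by edgeR (-4.85, adjusted p = 0.0219). Healthy epithelial cells had at most 2 counts of Il34 in any library and healthy stromal cells had 42 to 156. Tumor monocytes had 0 counts in every library after rounding. Reads of the antisense genes Gm15894 and Gm15895, which overlap Il34, cannot be separated from its own where strand is not used, and whether it was used is not given in the sources used here.

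Csf3 (ENSMUSG00000038067, chr11:98701263-98703629, plus strand) was detected in tumor myeloid cells and in stromal cells. Tumor epithelial library 3 had 14 counts, and blood libraries had at most 10, in healthy monocyte library 1. Tumor neutrophils had 0.718, 0, 0.464 and 0.474 RPKM, and tumor monocytes had 0.502, 0.587, 0.0343 and 0.585 RPKM. In each of these groups 3 libraries were alike and 1 was at or near 0. Blood libraries of tumor-bearing mice had at most 1 count in neutrophils and 3 counts in monocytes, so on a floor of 3 counts per library the mean in the tumor was higher by at least 10.3-fold in neutrophils and by at least 11.1-fold in monocytes. The filter on low counts kept Csf3 out of both tests. The levels in stromal cells were 0.216, 0.414, 0.126 and 0.00274 RPKM in healthy colon and 0.0595, 0.118, 0.246 and 0.932 RPKM in tumors, which overlap (1.14 on the log2 scale, standard error 1.17, edgeR adjusted p = 0.592).

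Csf2 (ENSMUSG00000018916, chr11:54247271-54249667, minus strand) had at most 12 counts in any library. That count came from healthy stromal library 4, and the next highest, 11 counts, from tumor neutrophil library 1, the library with the most epithelial transcript. At this depth a difference in Csf2 between groups was not detectable. An antisense gene, Gm12223, overlaps it.

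Csf1r (ENSMUSG00000024621), the receptor for Csf1 and Il34, was a monocyte transcript in these cells. It stood at 92.8, 121, 108 and 75.1 RPKM in healthy blood monocytes, at 106, 167, 48.9 and 50.3 RPKM in blood monocytes of tumor-bearing mice and at 60.9, 57.0, 72.3 and 94.1 RPKM in tumor monocytes. These 3 groups overlapped one another. Neutrophils also held the transcript, at 13.3 to 20 RPKM in healthy blood, 8.08 to 18.3 RPKM in blood of tumor-bearing mice and 3.99 to 16.4 RPKM in tumors. Every neutrophil library lay below every monocyte library. No difference was called between the blood and tumor groups within neutrophils or within monocytes, with log2 fold changes from -0.38 to 0.01 and edgeR adjusted p from 0.58 to 0.996. Csf1r overlaps Hmgxb3 on the other strand.

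Stromal cells were the place where Csf1r differed. It stood at 0.343, 0.257, 0.313 and 1.55 RPKM in healthy stromal cells and at 2.38, 1.47, 3.45 and 4.99 RPKM in tumor stromal cells. Tumor library 2 lay just below healthy library 4, and the other 3 tumor libraries were above all healthy ones. The log2 fold change was 2.62 (standard error 0.67, edgeR adjusted p = 0.0423). The call was lost on leaving out any 1 library other than healthy library 4, with edgeR adjusted p of 0.0587 to 0.109. The 6 macrophage markers, all 6 detected, ran from 7.41 to 18.1 RPKM in the tumor libraries and from 2.92 to 8.16 RPKM in the healthy ones. The monocyte list, which includes Fn1, summed to 11.5 to 19.8 RPKM against 38.9 to 170 RPKM. The 170 RPKM was that of healthy library 4, where fibroblast markers summed to 2010 RPKM. In stromal cells this sum was not shown to count monocytes. The part of either list in the difference was not tested. The gate for stromal cells takes CD45- cells, but macrophage and neutrophil markers were present in the stromal libraries. Neutrophil markers stood at 1546 and 511 RPKM in tumor libraries 3 and 4. Whether such cells passed the gate was not tested.

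Csf3r (ENSMUSG00000028859, chr4:126024550-126044440, plus strand), the G-CSF receptor, was the most abundant member. It stood at 363, 309, 296 and 319 RPKM in healthy blood neutrophils, at 173, 218, 300 and 227 RPKM in blood neutrophils of tumor-bearing mice and at 51.6, 192, 182 and 201 RPKM in tumor neutrophils. The means were 322, 230 and 157 RPKM, but neighbouring groups overlapped and neither step passed the test, with log2 fold changes of -0.44 (standard error 0.22, edgeR adjusted p = 0.273) and -0.40 (standard error 0.54, adjusted p = 0.651). The low value of 51.6 RPKM was that of library 1, in which neutrophil markers were 23.8% and epithelial markers 66.4% of the means of their own sorted tumor cells. Monocytes had 14.0 to 18.5 RPKM in healthy blood, 14.2 to 20.4 RPKM in blood of tumor-bearing mice and 8.37 to 9.46 RPKM in tumors. The tumor monocyte libraries lay below all blood monocyte libraries, a log2 difference of -0.71 (standard error 0.19, edgeR adjusted p = 0.0285) that did not reach the fold threshold. Neutrophil markers stood at 27.0 to 60.6 RPKM in those tumor monocytes and at 74.9 to 251 RPKM in the blood monocytes, and their part in the difference was not tested.

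In stromal cells Csf3r stood at 0.810, 0.182, 0.341 and 0.711 RPKM in healthy colon and at 1.27, 0.343, 17.8 and 18.2 RPKM in tumors. Tumor libraries 3 and 4, the ones with 1546 and 511 RPKM of neutrophil markers, stood far above all other stromal libraries. Other marker lists split the tumor stromal libraries in the same way. Endothelial markers stood at 111 and 125 RPKM in libraries 3 and 4 and at 4.57 and 3.87 RPKM in libraries 1 and 2, T cell markers at 7.71 and 11.8 against 0.55 and 0.497 RPKM, and mast cell and basophil markers at 13.9 and 7.28 against 0.753 and 0.101 RPKM. The part of any of these in the receptor levels was not tested. The log2 fold change was 4.48 (standard error 1.18, edgeR adjusted p = 0.0463), and it was 1.02 (adjusted p = 0.292) without those libraries. Leaving out tumor library 3 or 4 alone, or any 1 healthy library, also ended the call, with edgeR adjusted p of 0.0754 to 0.126. Csf2rb followed the same libraries, at 1.60 and 0.724 RPKM in tumor libraries 1 and 2 and 18.8 and 24.1 RPKM in libraries 3 and 4, against 3.40 to 7.53 RPKM in healthy stromal cells. Its log2 fold change was 1.43 (edgeR adjusted p = 0.374) with all 4 libraries, -1.76 (adjusted p = 0.0239) without libraries 3 and 4 and 2.35 (adjusted p = 0.0111) without libraries 1 and 2. For Csf2rb2 the values were 1.17 (adjusted p = 0.481), -2.15 (adjusted p = 0.0148) and 2.10 (adjusted p = 0.0192). The call of Csf1r was also lost without libraries 3 and 4 (log2 fold change 2.03, edgeR adjusted p = 0.0842) and without libraries 1 and 2 (3.06, adjusted p = 0.0537). Leaving out libraries 3 and 4 was chosen after seeing the data.

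**Figure D3:**
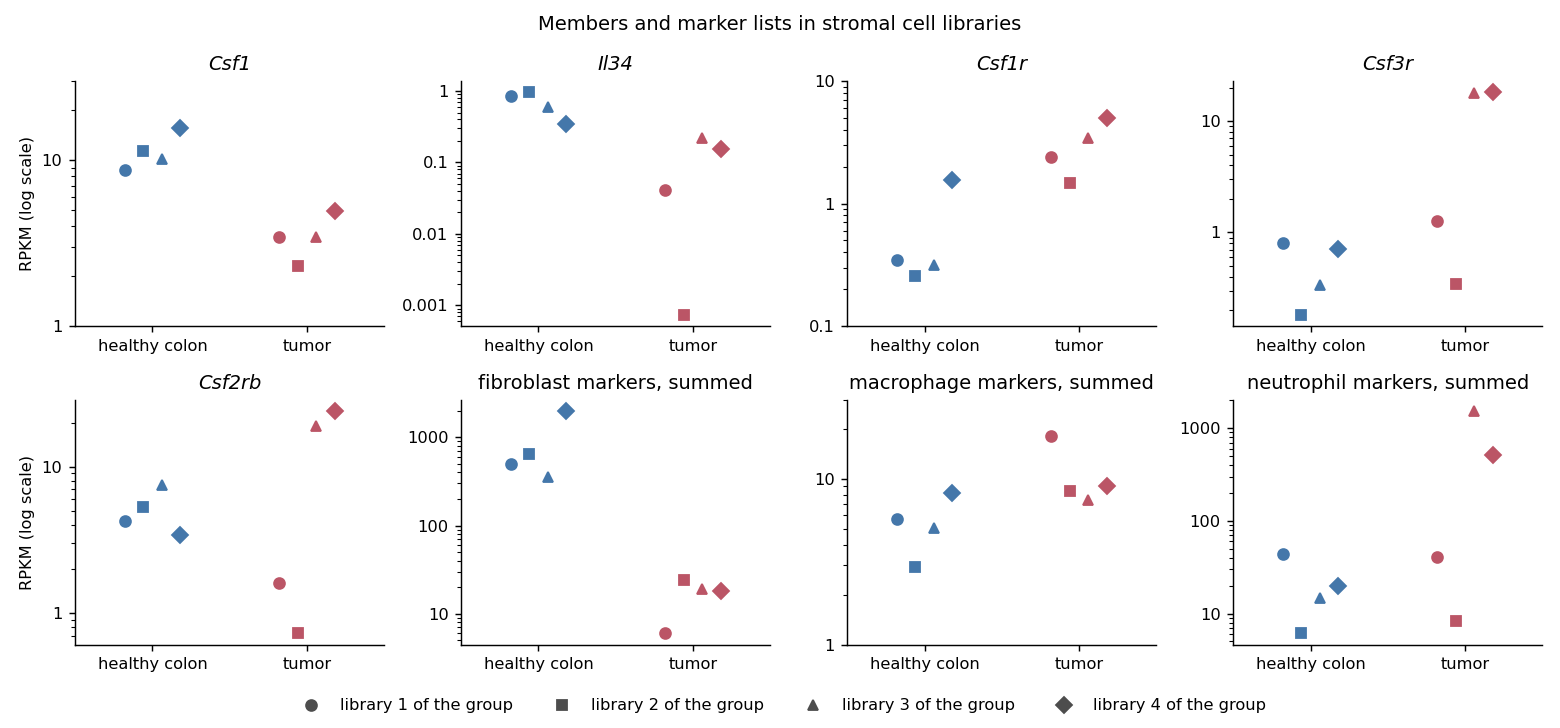
Members and summed marker lists in the stromal cell libraries, in RPKM on log axes that differ between panels, with 1 symbol per library number. Csf3r, Csf2rb and the neutrophil markers are highest in tumor libraries 3 and 4, while Csf1, Il34 and the fibroblast markers are lower in all 4 tumor libraries than in all 4 healthy ones.

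Csf2ra (ENSMUSG00000059326, chr19:61223957-61228429, minus strand), the alpha chain that binds GM-CSF, had overlapping levels in neutrophils and monocytes from all sources. Its group means were 23.3 to 29.9 RPKM in the neutrophil groups and 28.7, 61.0 and 29.2 RPKM in monocytes of healthy blood, blood of tumor-bearing mice and tumors. The mean of 61.0 RPKM rested on libraries 1 and 2, with 49.5 and 149 RPKM, while libraries 3 and 4 had 23.2 and 21.8 RPKM. No comparison between conditions called it in edgeR with all libraries. The widest difference, in stromal cells, was 1.94 on the log2 scale (standard error 0.60, edgeR adjusted p = 0.0768), with 0.854 to 2.37 RPKM in healthy colon and 2.60, 0.973, 6.93 and 6.04 RPKM in tumors. That difference was called by DESeq2 (1.96, DESeq2 adjusted p = 0.0112), with all 40 libraries in 1 fit, without tumor library 2 (2.25, edgeR adjusted p = 0.0434), without healthy library 4 (2.43, adjusted p = 0.0452) and without tumor libraries 1 and 2 (2.58, adjusted p = 0.0212).

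Csf2rb (ENSMUSG00000071713, chr15:78325752-78353847, plus strand) encodes the beta chain shared by the receptors of GM-CSF, IL-3 and IL-5. Tumor monocytes had 104, 72.2, 108 and 103 RPKM and blood monocytes of tumor-bearing mice had 35.1, 58.6, 25.4 and 23.3 RPKM. Every tumor library was above every blood library, a log2 fold change of 1.71 (standard error 0.31, edgeR adjusted p = 0.00421). Csf2rb2 (ENSMUSG00000071714, chr15:78282507-78305721, minus strand), a mouse beta chain that serves IL-3, rose from 27.8, 51.2, 19.9 and 18.2 RPKM to 88.2, 58.0, 91.7 and 87.7 RPKM. These groups did not overlap either, and the log2 fold change was 1.74 (standard error 0.34, edgeR adjusted p = 0.00646). With all 40 libraries in 1 fit the calls were lost, with edgeR adjusted p of 0.0793 for Csf2rb and 0.0983 for Csf2rb2. Sorted tumor epithelial cells had 0.157 to 0.325 RPKM of Csf2rb, well under any monocyte library. Tumor library 2, with the highest epithelial sum, had the lowest level of both genes. Monocyte markers were lower in tumor monocytes, at 143 to 201 RPKM against 350 to 403 RPKM in blood monocytes of tumor-bearing mice. The part of the epithelial and monocyte marker differences in the rise of either gene was not tested.

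In neutrophils no difference in the beta chains was called. Csf2rb stood at 44.4, 32.9, 18.5 and 35.4 RPKM in healthy blood, at 49.0, 53.8, 54.4 and 55.6 RPKM in blood of tumor-bearing mice and at 29.4, 76.4, 80.5 and 85.3 RPKM in tumors. All libraries from blood of tumor-bearing mice were above all healthy ones, a log2 difference of 0.75 (standard error 0.23, edgeR adjusted p = 0.0854). In tumors 3 libraries were above the blood libraries and library 1 was below them (0.49, standard error 0.45, adjusted p = 0.491). The interaction for Csf2rb was -1.32 on the log2 scale (standard error 0.57, edgeR adjusted p = 0.188), so a difference between neutrophils and monocytes in this change was not shown.

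**Figure D4:**
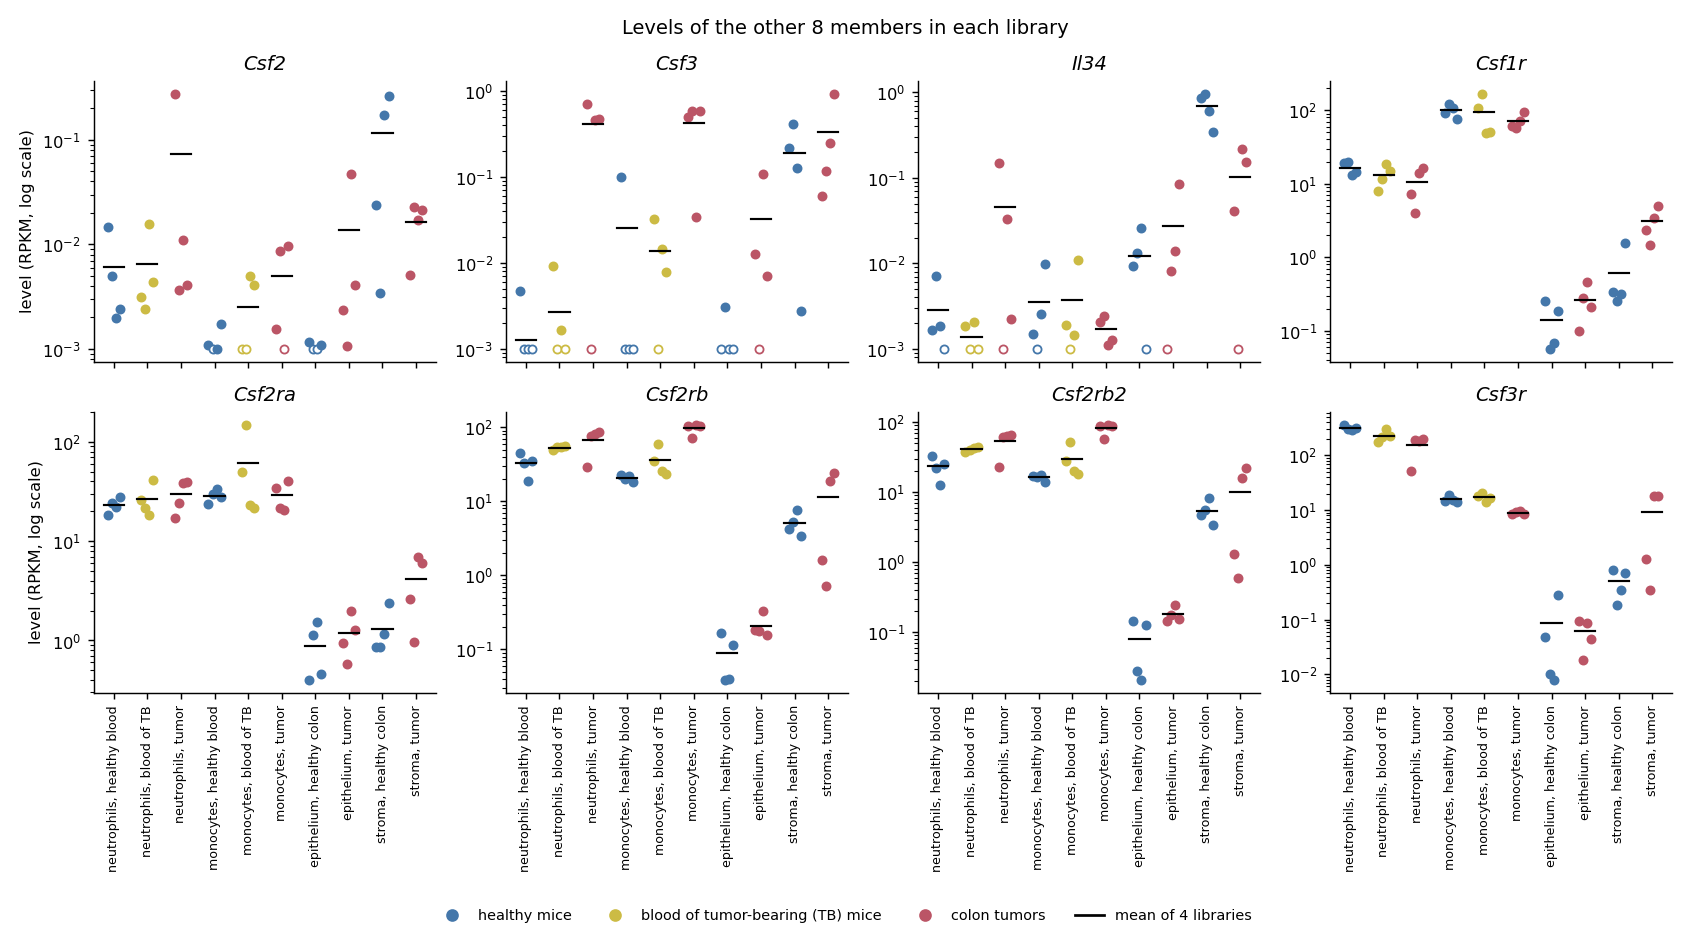
RPKM of the other 8 members on log axes, with 1 point per library and a bar at each group mean. Open points at the bottom of a panel are libraries below 0.001 RPKM for the ligands. Csf3r was highest in the 3 neutrophil groups, Csf1r in the 3 monocyte groups, and Csf2ra, Csf2rb and Csf2rb2 were present in both.

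Csf2rb and Csf2rb2 lie 20030 bases apart on chromosome 15, on opposite strands, and are near-identical copies, so how reads were shared between them bears on each value above. Their coding sequences, 2688 and 2634 bases in GENCODE M21 on GRCm38, aligned over 2696 columns with 2504 identical bases (92.9%), 122 substitutions and 70 gap columns. Of all windows of 50 bases, 26.0% of those of Csf2rb were found unchanged in Csf2rb2, and 26.6% the other way round. For 100 bases the shares were 11.0% and 11.3%. A read from such a window cannot be assigned to 1 of the genes by its sequence, and the treatment of these reads is not given in the sources used here. Shown first is the aligned stretch of 90 bases with the most differences, 16, which are in capitals, and these bases tell reads of the genes apart. It is chr15:78338897-78338986, plus strand, in Csf2rb and chr15:78294345-78294434, minus strand, in Csf2rb2.
Csf2rb: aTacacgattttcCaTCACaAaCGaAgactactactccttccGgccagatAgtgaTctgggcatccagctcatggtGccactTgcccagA
Csf2rb2: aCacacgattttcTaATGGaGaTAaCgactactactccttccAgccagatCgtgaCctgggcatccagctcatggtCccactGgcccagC
Shown next is a stretch of 90 bases with 0 differences, at coding bases 928 to 1017 of both genes (chr15:78341658-78341747, plus strand, and chr15:78291563-78291652, minus strand), from which no read can be told apart.
Csf2rb and Csf2rb2: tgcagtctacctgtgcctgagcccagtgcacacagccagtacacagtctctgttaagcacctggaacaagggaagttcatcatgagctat

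The ratio of Csf2rb2 to Csf2rb in RPKM was not the same in all cells. It was 0.673 to 0.750 in healthy blood neutrophils, 0.743 to 0.783 in blood neutrophils of tumor-bearing mice and 0.774 to 0.792 in tumor neutrophils. Monocytes had 0.751 to 0.832 in healthy blood, 0.784 to 0.874 in blood of tumor-bearing mice and 0.803 to 0.852 in tumors. Healthy stromal cells stood apart from these groups, at 0.990 to 1.11 with a mean of 1.06, and tumor stromal cells had 0.808 to 0.928. The ratio of tumor stromal cells thus lay next to that of tumor monocytes and below all healthy stromal libraries. These ratios are a description, since part of the reads cannot be assigned.

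**Figure D5:**
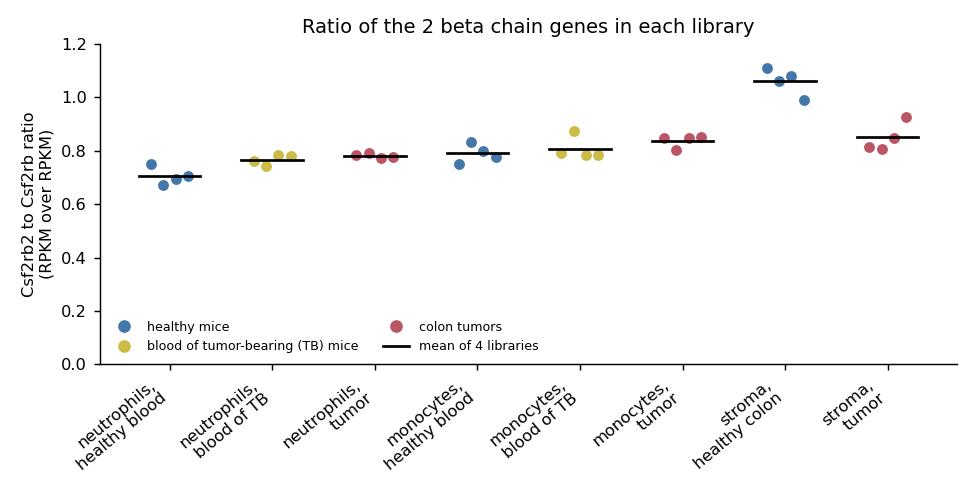
Ratio of Csf2rb2 to Csf2rb (RPKM over RPKM) in each library of 8 groups, with a bar at the group mean, and epithelial cells left out for their low counts. The 4 healthy stromal libraries lie at 0.990 to 1.11, above all others.

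Each member's group means were ranked, and neighbours in rank were compared by a 2-sided exact permutation test, which with 4 against 4 libraries can give no p under 0.0286. Of the 81 neighbouring pairs, 10 did not overlap, and the smallest Benjamini-Hochberg adjusted p of these exact permutation tests was 0.231. With only 10 of the 81 pairs at the smallest p, none passed the threshold, so this test does not say which neighbours differ. The pairs were ordered by the means they compare, and the share of pairs without overlap over all genes was not computed. Where the text also compares such neighbours by edgeR, that test stands. For Csf1 the order was healthy blood neutrophils, tumor neutrophils, healthy stromal cells, tumor stromal cells, blood neutrophils of tumor-bearing mice, tumor epithelial cells, tumor monocytes, healthy blood monocytes, blood monocytes of tumor-bearing mice and healthy epithelial cells, from 16.6 down to 0.129 RPKM. Its libraries did not overlap at 3 of 9 steps, from healthy to tumor stromal cells, from tumor epithelial cells to tumor monocytes, and from healthy blood monocytes to those of tumor-bearing mice. Tumor neutrophils became the highest group when RPKM was rescaled to TMM library sizes or to counts outside mitochondrial genes. For Csf1r the step without overlap was from tumor monocytes (71.1 RPKM) to healthy blood neutrophils (16.6 RPKM). For Csf3r such steps lay between tumor neutrophils (157 RPKM) and blood monocytes of tumor-bearing mice (17.4 RPKM) and between tumor monocytes (8.87 RPKM) and healthy stromal cells (0.511 RPKM). Csf2ra dropped without overlap from healthy blood neutrophils (23.3 RPKM) to tumor stromal cells (4.14 RPKM). For Csf2rb and Csf2rb2 the break came below healthy stromal cells (5.11 and 5.46 RPKM), above tumor epithelial cells (0.210 and 0.179 RPKM). Il34 broke between healthy and tumor stromal cells, and Csf2 and Csf3 overlapped at every step.

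The healthy groups separated the members by cell type. In healthy blood, 3 of 6 members tested were called between neutrophils and monocytes, beside 37.1% of all genes tested. By the animal numbers in the titles, the 4 neutrophil libraries share their animals with 2 of the 4 monocyte libraries, and the fit treats the libraries as independent. Csf1 (5.40 on the log2 scale, standard error 0.28, edgeR adjusted p = 2.04e-06) and Csf3r (5.14, standard error 0.19, adjusted p = 6.05e-07) were higher in neutrophils, and Csf1r (-1.81, standard error 0.18, adjusted p = 4.49e-05) was higher in monocytes. Csf2rb (1.43, adjusted p = 0.000549) and Csf2rb2 (1.28, adjusted p = 0.00169) were higher in neutrophils below the fold threshold. Csf2ra did not pass (0.48, edgeR adjusted p = 0.0771), and its RPKM means of 23.3 in neutrophils and 28.7 in monocytes go the other way. In healthy colon, 4 of 7 members tested were called, all lower in epithelial than in stromal cells, beside 30.9% of all genes. They were Csf1 (-4.75, standard error 0.99, edgeR adjusted p = 0.00432), Il34 (-5.16, standard error 0.73, adjusted p = 0.000605), Csf2rb (-4.24, standard error 0.87, adjusted p = 0.004) and Csf2rb2 (-4.32, standard error 1.00, adjusted p = 0.00749).

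Among the 4 cell types of the tumor, neutrophils carried the most Csf1 and Csf3r and monocytes the most Csf1r. Between tumor neutrophils and monocytes, 3 of 7 members tested were called beside 13.8% of all genes. Csf1 (log2 fold change 4.03, edgeR adjusted p = 6.35e-05) and Csf3r (4.92, adjusted p = 0.00454) were higher in neutrophils and Csf1r (-2.12, adjusted p = 0.00856) in monocytes, while Csf2rb differed by 0.24 (standard error 0.74, adjusted p = 0.851). All 7 were higher in neutrophils than in epithelial cells, beside 21.6% of all genes, from 3.34 for Csf1 to 12.32 for Csf3r. Against stromal cells 6 of 7 were higher in neutrophils, beside 16.1% of all genes, with Csf3 the exception (1.00, edgeR adjusted p = 0.568). Monocytes exceeded epithelial cells in 6 of 7, beside 29.0% of all genes, and Csf1 was the exception (-0.69, standard error 0.38, adjusted p = 0.173). Monocytes exceeded stromal cells in 4 of 7, beside 20.3% of all genes, namely Csf1r (4.80), Csf2ra (3.11), Csf2rb (3.41) and Csf2rb2 (3.32), and for Csf1 the difference was -1.12 (edgeR adjusted p = 0.0429), below the fold threshold. Epithelial cells were lower than stromal cells in 4 of 7, beside 4.09% of all genes, for Csf1r (-3.54), Csf2rb (-5.68), Csf2rb2 (-5.72) and Csf3r (-7.18). Of the 779 genes called in that last comparison, 777 were lower in epithelial cells. Without tumor stromal libraries 3 and 4, Csf2rb was -2.47 (edgeR adjusted p = 0.0553) and Csf2rb2 -2.39 (adjusted p = 0.0649), and Csf3r, still called, was -3.69 (adjusted p = 0.0468). By limma-voom only Csf1r was called of these 4, and Csf3r had an adjusted p of 0.306. Some of these libraries carry the same animal number, and with the animal number of the library titles as a block the counts against stromal cells were 0 of 7 for neutrophils and 1 of 7, Csf1r, for monocytes, and the calls of Csf3 against epithelial cells were lost (edgeR adjusted p = 0.0841 for neutrophils and 0.102 for monocytes). Few animal numbers recur between stromal and myeloid libraries, so this block leaves little to compare.

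Of 41 other genes of the pathway, listed as related cytokines and receptors, signaling and feedback genes and lineage factors, 35 were tested between tumor and blood neutrophils, where 7 were called higher and 0 lower, beside 16.3% of all genes called. In monocytes 33 were tested, of which 9 rose and 3 fell, beside 11.7%. The share in neutrophils was near that of all genes. The list's median change on the log2 scale was 0.08 in neutrophils and 0.56 in monocytes, against 0.11 and -0.03 over all genes tested. Cish, a feedback inhibitor induced by STAT5, stood at 2.54 ± 1.10 RPKM in tumor neutrophils and 0.0871 ± 0.0797 RPKM in blood neutrophils (log2 fold change 5.13, edgeR adjusted p = 0.00661). In monocytes it rose from 0.0976 ± 0.0434 to 2.64 ± 1.12 RPKM (5.03, edgeR adjusted p = 0.000108). Socs3, an inhibitor of STAT3 signaling, rose in monocytes from 6.08 ± 2.96 to 25.7 ± 5.53 RPKM (2.34, adjusted p = 0.000634), as did Jak2, the kinase bound to Csf2rb, from 6.02 ± 0.275 to 20.9 ± 7.96 RPKM (2.05, adjusted p = 0.000666). The transcription factor Cebpb rose in both, by 1.85 in neutrophils (edgeR adjusted p = 0.028) and 1.81 in monocytes (adjusted p = 0.00268). Bcl2l1, which protects cells from apoptosis, rose by 2.55 in tumor neutrophils (edgeR adjusted p = 0.00438) and by 1.87 in blood neutrophils of tumor-bearing mice against healthy ones (adjusted p = 0.00964). Kitl (7.88), Sdc1 (6.46) and Klf4 (3.82) were also called higher in tumor neutrophils. Their levels in tumor neutrophils were 4.03 ± 4.56 RPKM for Kitl, 0.508 ± 0.38 RPKM for Sdc1 and 2.86 ± 3.48 RPKM for Klf4. Kitl stood at 20.9 ± 3.15 RPKM in sorted tumor epithelial cells, and Klf4 at 10.5 ± 5.67 RPKM in healthy colon epithelial cells. The epithelial markers were present in the tumor neutrophil libraries too, and their part in any of these rises was not tested. The 1 pathway gene called in the interaction was Socs3 (-2.29, standard error 0.54, edgeR adjusted p = 0.0249), so its step from blood to tumor was larger in monocytes.

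In blood, 2 of 29 pathway genes tested were called in neutrophils of tumor-bearing mice against healthy ones, Bcl2l1 and Kit (4.68, edgeR adjusted p = 0.0291), beside 4.01% of all genes, and 0 of 32 in monocytes by edgeR, where 7 had an unadjusted p under 0.05 and DESeq2 called 1. Kit was low and variable in these neutrophils, at 1.01 ± 1.15 RPKM in tumor-bearing mice and 0.039 ± 0.0295 RPKM in healthy ones. In epithelial cells 4 of 31 were higher in tumors, beside 15.4% of all genes called in either direction. Kitl, the ligand of Kit, rose from 2.88 ± 1.57 to 20.9 ± 3.15 RPKM (2.41, edgeR adjusted p = 5.88e-05), as did Socs3 from 0.292 ± 0.165 to 4.91 ± 1.01 RPKM (3.19, adjusted p = 0.00193). In stromal cells 2 of 36 were higher, Ptpn6 (2.59, edgeR adjusted p = 0.0328) and Bcl2l1 (1.59, adjusted p = 0.0308), and Klf4 was lower (-1.62, adjusted p = 0.0165), beside 8.4% of all genes. Between healthy cell types 6 of 32 pathway genes were higher and 7 lower in neutrophils than in monocytes, beside 37.1% of all genes, and 3 of 37 were higher and 12 lower in epithelial than in stromal cells, beside 30.9%. Among tumor cells, 18 of 23 signaling and feedback genes were called higher in neutrophils than in epithelial cells and 0 lower, beside 21.6% of all genes called in either direction. Against stromal cells 16 were higher in neutrophils and 0 lower, beside 16.1%. In monocytes 16 were higher and 1 lower than in epithelial cells, beside 29.0%, and 10 higher and 2 lower than in stromal cells, beside 20.3%. Over all 36 pathway genes tested, 20, 18, 21 and 13 were higher and 2, 2, 4 and 5 lower, in that order of comparisons. Between tumor neutrophils and monocytes 4 were higher and 4 lower, beside 13.8% of all genes. For neutrophils against epithelial cells, related cytokines and receptors gave 0 higher and 1 lower of 6, and lineage factors 2 and 1 of 7. Of all genes called there, 3355 of 4102 were higher in neutrophils, and against stromal cells 2292 of 3067 were.

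The genes most like each member across the 40 libraries were sought by Pearson's correlation of log2(RPKM + 1) among 8241 genes with a mean of at least 1 RPKM. The libraries fall into 10 groups by cell type and source, so these values describe shared patterns over groups, and libraries of a group are not independent points. Csf2rb and Csf2rb2 were each other's nearest gene, at r = 0.998, with part of their reads not assignable to either copy. Csf1r was nearest to Mpeg1 (0.974), Adgre1 (0.967) and Cybb (0.956), and Csf3r to B430306N03Rik (0.979), Lyst (0.977) and A530064D06Rik (0.973). For Csf2ra they were Ptpn1 (0.963), Laptm5 (0.963) and Fcgr3 (0.962), and for Csf2rb after its copy Cd53 (0.965) and Rab8b (0.965). Il34 was nearest to Cyp26b1 (0.958), Sfrp1 (0.954) and Lims2 (0.949). Csf1 had no gene as near, with Chac1 (0.85), Pdlim7 (0.826) and Arrdc3 (0.806), nor did Csf3, with Gm26603 (0.785), Spag9 (0.782) and Hilpda (0.754). Csf2, at the limit of detection, reached 0.642 with Sfrp4, 0.622 with Iglv2 and 0.620 with Iglv1.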

How the data were processed

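Bulk RNA sequencing of sorted mouse cells was re-analysed from deposited tables. RNA had been amplified with the NuGEN Ovation system before library preparation. Reads had been mapped to mm10, and the submitters' processing notes name Bowtie2. The authors deposited expected counts per Ensembl gene, not normalized, and RPKM values, which the authors derived from the counts, dividing by 1 factor for each gene and 1 for each library. The annotation release, use of strand and treatment of reads with several matches are not given in the sources used here. As 99.6% of nonzero values were fractional (tolerance 1e-06), the expected counts were rounded, which changed a library's total by at most 1104.6. Symbols came from GENCODE M21 for 45143 of 45706 genes.

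Counts were tested with edgeR 4.0.16 (R 4.3.3; quasi-likelihood, robust) after TMM normalization and filterByExpr, on the 8 libraries compared, on 16 for the interaction and for the tumor cell types. Calls needed a Benjamini-Hochberg adjusted p under 0.05 over all genes tested with a log2 fold change beyond 1.5 in either direction, as in the study's methods. Both tumor stromal libraries called 3 and 4 here carry replicate number 3 in the labels, and were numbered by accession order. Levels are RPKM, mean ± SD over 4 libraries. The RPKM scale differs from the TMM scale, so a ratio of RPKM means can differ from a fold change. P-values measure the spread between the libraries of a group. Counting alone limits the precision of low counts, and floors of 3 counts cover counting error only. The fits were tested on simulated data with known fold changes.

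Alternatives were DESeq2 1.42.0, limma-voom with limma 3.58.1, size factors by RLE, a minimum of 10 counts in each library, leaving the filter out, all 40 libraries in 1 fit, limma on log2(RPKM + 1) and log2(RPKM + 0.1), no mitochondrial genes, replicate and animal blocks, no fold threshold, and leaving out single libraries or 3 libraries high in epithelial transcripts. Leaving out tumor stromal libraries 3 and 4 was added after seeing the data. Members, pathway lists and marker lists were chosen with earlier results of these data known. The genes named are all members, at most 6 called pathway genes per comparison by smallest adjusted p, and the 3 genes most correlated with each member. The result of 1 pathway gene is not reported here. Markers of T cells and of mast cells and basophils were given above only for tumor stromal cells. Their highest summed levels in any library were 11.8 and 13.9 RPKM, both in tumor stromal cells. The innate lymphoid, dendritic and B cell lists were given beside no result. Their highest summed levels were 18.0 RPKM in healthy stromal cells, 7.81 RPKM in healthy blood monocytes and 6.90 RPKM in tumor stromal cells. Some macrophage genes were at 0 in all libraries of a group, C1qa and C1qb in blood neutrophils and C1qa in blood monocytes of tumor-bearing mice.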

Additional observations from a re-analysis of the deposited data

Results flagged for a closer look

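In 8 of 51 groups of 4 libraries with a mean of at least 0.5 RPKM, 1 library of a member lay far from the other 3 by Dixon's criterion, which chance alone meets in about 1 of 20 groups. They fell on 4 libraries. In tumor neutrophil library 1, Csf2rb was 29.4 RPKM (others 76.4 to 85.3), Csf2rb2 was 23.1 RPKM (60.5 to 66.4) and Csf3r was 51.6 RPKM (182 to 201). This library had the highest epithelial marker sum of its group, 127 RPKM. In tumor monocyte library 2, Csf1 was 0.752 RPKM (others 1.51 to 1.59), Csf2rb 72.2 RPKM (103 to 108) and Csf2rb2 58.0 RPKM (87.7 to 91.7), and it too had the highest epithelial sum of its group, 26.8 RPKM. Csf1 was 20.5 RPKM in tumor neutrophil library 2 (others 9.84 to 11.6), and Csf1r was 1.55 RPKM in healthy stromal library 4 (others 0.257 to 0.343). Several marker sums of that stromal library were the highest of its group. They were 8.16 RPKM for macrophage, 170 for monocyte, 2010 for fibroblast and 14.1 for epithelial markers. Its endothelial sum, 25.1 RPKM, was the lowest. The part of these in its Csf1r level was not tested.

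Csf1 moved in opposite directions between tumor-bearing and healthy mice in different cells. The ratio of its mean RPKM was 20.1 in epithelial cells, with every tumor library higher, and 0.182 in blood neutrophils, 0.234 in blood monocytes and 0.309 in stromal cells, with every library of tumor-bearing mice lower. The difference between these effects was not tested. In epithelial cells the edgeR log2 fold change, on the TMM scale, was 2.89 (standard error 0.85). Its call was lost on leaving out single libraries, as given above. The differences in blood monocytes and stromal cells were not called by edgeR with all libraries, and DESeq2 called the one in blood monocytes.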

How the results depend on the processing

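Of 45 called values of members, 23 were called under every alternative run for them, 22 were lost under at least 1 and 0 changed direction. Of 25 values that were not called, 10 were called under at least 1. Causes were not tested. For tumor against blood neutrophils, 2 members were called with no filter and 3 with all 40 libraries in 1 fit, against 1. For tumor against blood monocytes, 1 was called on log2(RPKM + 1), against 3, and for blood monocytes 1 by DESeq2, against 0. For tumor against healthy epithelial cells, 0 were called by DESeq2 or with at least 10 counts, against 1. DESeq2 gave Csf1 a log2 fold change of 2.84 there without an adjusted p. The minimum of 10 counts left Csf1 untested, since its lowest count in healthy epithelial cells was 4. For stromal cells, against 2, there were 1 by limma-voom, 4 by DESeq2, 1 with no filter, 0 on log2(RPKM + 1), 4 without the 3 libraries high in epithelial transcripts and 4 without tumor libraries 3 and 4. With no fold threshold 5 members differed between healthy blood neutrophils and monocytes, against 3. With at least 10 counts 0 were called between healthy epithelial and stromal cells, against 4, since that filter left all 4 untested. Their lowest counts in healthy epithelial cells were 4 for Csf1, 0 for Il34, 9 for Csf2rb and 5 for Csf2rb2. Between tumor epithelial and stromal cells, against 4, there were 1 by limma-voom, 0 on log2(RPKM + 1) and 2 without stromal libraries 3 and 4. The animal block gave 0 against 6 for tumor neutrophils and 1 against 4 for tumor monocytes compared with stromal cells.

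Leaving out 1 library at a time gave 1 to 2 members called for tumor against blood neutrophils, 3 to 4 for monocytes, 1 to 1 and 0 to 0 for blood neutrophils and monocytes, 0 to 1 for epithelial cells, 0 to 2 for stromal cells, 3 to 4 for healthy blood cell types, 4 to 5 for healthy colon cell types and 0 to 1 for the interaction. Among tumor cells it gave 3 to 3 for neutrophils against monocytes, 6 to 7 and 6 to 6 for neutrophils against epithelial and stromal cells, 5 to 6 and 4 to 5 for monocytes against the same, and 4 to 5 for epithelial against stromal cells. Leaving out tumor library 2 or any 1 blood library gave the 2 of neutrophils. The group with the highest level stayed the same for 8 to 9 of the 9 members.

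Replicate numbers did not pair the samples: in 8 comparisons, 32 correlations of same-numbered deviations ran from -0.256 to 0.251, and in 0 comparisons were all over 0.1. Replicate numbers are not animal numbers, so this check does not address pairing by animal. By the titles, some tumor and blood libraries of neutrophils, and of monocytes, carry the same animal number. The fits of tumor against blood treat these libraries as independent. The replicate block changed the count of members called by over 1.5 times in stromal cells, to 1 from 2, where Csf3r was lost (3.33 on the log2 scale, edgeR adjusted p = 0.185), and it changed no other call of a member.

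Values that were not called and changed direction were Csf3r in epithelial cells (-2.69, but 0.38 by limma-voom, 0.06 with the replicate block and from -3.13 to 1.06 on leaving out 1 library, the highest without healthy library 4), Csf3 in stromal cells (1.14, but -0.63 without tumor libraries 3 and 4 and from -0.08 to 1.90 on leaving out 1 library, the lowest without tumor library 4), Csf2rb2 in stromal cells (1.17, but -0.01 with the replicate block, -0.02 on log2(RPKM + 1), -0.29 on log2(RPKM + 0.1) and -2.15 without libraries 3 and 4), Csf2rb in stromal cells (1.43, but -1.76 without libraries 3 and 4), Csf2ra between healthy blood neutrophils and monocytes (0.48, but -0.29 and -0.30 on the RPKM scales) and Csf1 in the interaction (-1.19, but 0.80 on log2(RPKM + 1)). The RPKM scale with a pseudocount of 0.1 moved the median log2 fold change of all genes by -0.78 to 0.59. It moved the share of calls that were higher from 48.8% to 73.7% in epithelial cells and from 40.3% to 24.5% in stromal cells. For tumor neutrophils the share fell from 81.8% to 29.1% against epithelial cells and from 74.7% to 25.2% against stromal cells. Against monocytes it fell from 71.1% to 25.2%. Most calls there were thus higher in neutrophils on the TMM scale and lower on this RPKM scale. For tumor monocytes the share went from 48.8% to 42.2% against epithelial cells and changed little against stromal cells. Low counts limit Csf2, Csf3 and Il34.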
